A study of Homo sapiens with 7 samples.

Results

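The genes described here are LINC genes, the long intergenic non-coding RNAs that carry the symbol LINC followed by a number. They were chosen by that symbol and by a mean normalized count of at least 30 over the 7 libraries, and 134 of the 449 LINC genes in the table met this rule, out of 21305 genes in all. The level therefore chose the members and is given as a description. The 3 members closest to the limit were LINC00871 (mean 31.2), LINC00882 (30.8) and LINC02732 (30.6), and the 3 LINC genes just under it were LINC01518 (29.98), LINC01918 (28.5) and LINC00858 (28.4).

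RNA was sequenced from 501Mel, a human melanoma cell line, in which doxycycline switched on a short hairpin RNA. A short hairpin RNA is processed into a small guide that lowers a matching transcript. In the control group (shlacZ, n = 3) the hairpin was directed at the bacterial gene lacZ, which human cells lack, and in the groups sh4 (n = 2) and sh8 (n = 2) it was directed at the lncRNA GRASLND. All 7 libraries carried an integrated hairpin construct and received doxycycline, and the labels give neither its dose nor the time of induction. The methods of the study describe pools of transduced cells of this 1 line, and nothing in the labels says whether replicates were separate cultures, so that p-values measure the spread between these samples, which may be technical.

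Long non-coding RNAs are transcripts that are not translated into known proteins, and many are made in only a few cell types. Some act at the locus from which they are transcribed, others in the nucleus or cytoplasm as partners of proteins or microRNAs, and for most LINC genes no function is known. In melanoma several have been studied as markers of the tumour or as regulators of growth and invasion.

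Of the members, 132 were annotated as lncRNA in GENCODE release 44 and 2 as transcribed pseudogenes. The genomic span was 32814 bp in the median, the exons together covered 4624 bases, and the main transcript had 4 exons, with 14 members consisting of 1 exon. The start of the nearest protein-coding gene lay a median of 67698 bp away, and for 60 members it lay over 100 kb away. The name intergenic did not hold for all, since 21 members overlapped a protein-coding gene on either strand. Exon bases were shared with another gene on the same strand by 23 members and on the opposite strand by 52, and 11 members had a near-identical copy elsewhere in the transcript annotation (at least 95% identity over at least 50% of the transcript), so that their counts are uncertain. Values are not given for 1 of the 134 members, which is included in all counts.

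Promoter sequences are shown for members that changed in knockdown against control, because these are the stretches from which the RNAs that moved are started. RefSeq (GRCh38.p14) listed a promoter, from 250 bases before to 50 after the start, for 88 of the 134 members and for 5 of the 10 members called in that comparison. It had no entry for LINC00645, LINC02732, LINC00520, LINC00958 and LINC01198. The RefSeq starts of LINC02223 and LINC01138 lay 122690 and 59684 bp from their GENCODE starts and are not shown, a choice made after seeing the distances. For the other members the starts lay within 100 bp of each other. Capitals mark matches, on either strand, to CACGTG (the E-box), TCATGTG (an E-box form bound by the melanocyte factor MITF), TGACTCA (the AP-1 site), CTTTGAA (a site of the WNT effectors TCF and LEF), CCGCCC (the GC box), CCAAT (the box of that name) and TATAAA (the TATA box). None of these motifs contains another. LINC01443 (chr18:14946017-14946316, plus strand) fell, and LINC02981 (chr7:26398319-26398618, plus strand) and LINC00499 (chr4:138309461-138309760, plus strand) rose.
LINC01443: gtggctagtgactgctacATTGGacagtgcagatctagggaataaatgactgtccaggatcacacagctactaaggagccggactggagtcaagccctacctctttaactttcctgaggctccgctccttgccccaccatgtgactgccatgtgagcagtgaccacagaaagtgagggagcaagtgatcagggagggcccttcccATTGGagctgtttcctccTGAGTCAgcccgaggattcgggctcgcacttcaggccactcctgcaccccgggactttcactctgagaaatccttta
LINC02981: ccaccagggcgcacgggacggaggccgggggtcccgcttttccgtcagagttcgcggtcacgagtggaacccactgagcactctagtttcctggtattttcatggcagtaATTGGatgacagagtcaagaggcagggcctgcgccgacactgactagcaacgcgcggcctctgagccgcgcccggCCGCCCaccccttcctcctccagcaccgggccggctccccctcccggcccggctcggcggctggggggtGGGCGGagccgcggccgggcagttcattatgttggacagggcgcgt
LINC00499: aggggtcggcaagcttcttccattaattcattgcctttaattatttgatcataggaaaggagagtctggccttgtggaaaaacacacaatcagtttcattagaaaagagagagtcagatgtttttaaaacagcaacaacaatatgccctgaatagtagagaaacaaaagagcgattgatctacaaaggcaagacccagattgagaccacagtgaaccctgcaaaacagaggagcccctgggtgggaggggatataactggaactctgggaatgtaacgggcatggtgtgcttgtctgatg

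LINC01443 held CCAAT at 2 positions, both as its reverse complement, and TGACTCA at 1. LINC02981 held CCGCCC at 2 positions and CCAAT at 1, and LINC00499 held none of the 7 motifs. Among all 35116 promoters of this length 34.6% held CCAAT, 45.0% CCGCCC, 4.95% TGACTCA and 7.26% CACGTG, against 50%, 40.9%, 9.09% and 6.82% of the 88 member promoters. CTTTGAA was present in 4.43% of all and 3.41% of member promoters, TATAAA in 11.5% and 15.9%, and TCATGTG in 2.92% and 2.27%. The median GC content was 55.2% for member promoters and 58.7% for all promoters.

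Before the members, the target and the libraries were examined. GRASLND (ENSG00000228203, chromosome 2, 6911754 to 6918734, minus strand of hg38) was at 309, 329.9 and 289.7 normalized counts with shlacZ, 175 and 131 with sh4 and 227 and 163 with sh8. All 4 knockdown libraries lay below all 3 controls, with a log2 fold change of -0.85 ± 0.19 (SE) and an adjusted p of 0.0402 by limma. Taken singly, sh4 was at -1.02 ± 0.21 (adjusted p = 0.00662, limma) and sh8 at -0.68 ± 0.21 (adjusted p = 0.11), which did not pass the threshold. A difference in GRASLND between the hairpins was not shown either (sh4 minus sh8 -0.34 ± 0.22, adjusted p = 0.421, limma). RNF144A, the coding gene that overlaps it on the other strand, was at 3365 ± 230.0 in shlacZ, 2315 ± 340.0 in sh4 and 3479 ± 34.03 in sh8 (SD), and whether counting used strand is not given in the sources used here. The reads assigned to the genes of the table, recovered from the normalized counts, were 13337317 to 22855232 per library, which is not the full sequencing depth. All 8 markers of the melanocyte lineage were detected, and their summed level was 135855 to 146631 in shlacZ, 52282 to 60068 in sh4 and 101817 to 104837 in sh8. Of 17 markers of keratinocytes, fibroblasts, blood and endothelial cells, 3 had values (KRT10, COL1A1 and PDGFRA) and 2 of these reached a mean of 10. The summed keratinocyte marker was at 155 to 206 in shlacZ, 142 to 164 in sh4 and 133 to 166 in sh8, and the summed fibroblast markers stayed under 20 in every library. In bulk RNA, fewer cells of a type and less RNA per cell cannot be told apart.

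The libraries numbered 1 stood apart in their LINC RNA in shlacZ and sh4. The first shlacZ library was the highest of the 3 controls for 99 of the 134 members (73.9%), against 37.9% of all genes tested. The first sh4 library exceeded the second for 100 members (74.6%, against 45.6% of all genes), whereas the first sh8 library exceeded the second for 71 (53.0%), near the 47.9% of all genes. Summed over the members, the normalized count was 41446, 33373 and 33177 with shlacZ, 31716 and 26959 with sh4 and 35094 and 32479 with sh8. NEAT1, a nuclear lncRNA of the paraspeckles, was highest in the library numbered 1 of each group, at 56429.5, 16810 and 11412 in shlacZ, 67454 and 23311 in sh4 and 40816 and 17297 in sh8. MALAT1, another abundant nuclear lncRNA, followed this order in shlacZ (87296, 65705 and 67891) and sh8 (84060.4 and 74742) but not in sh4 (101957 and 104099). The part of this difference in the results was not tested, and the counts of called members in the 4 comparisons are also given without these 3 libraries.

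**Figure D1:**
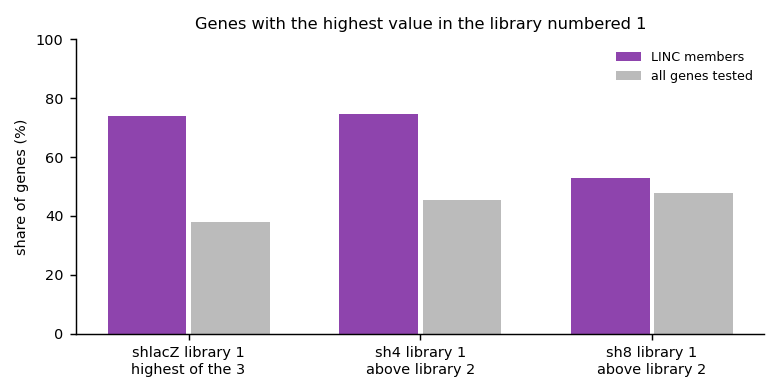
Share of genes (%, bars) with the highest value of their group in the library numbered 1, for the 134 LINC members and for all 15420 genes tested. The share was 73.9% against 37.9% in shlacZ and 74.6% against 45.6% in sh4, and 53.0% against 47.9% in sh8.

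Levels in the control cells were led by a small number of RNAs. The mean normalized count over all libraries ranged from 30.6 to 2358 with a median of 132, and 78 members reached 100, 18 reached 500 and 5 reached 1000. The 8 members with the highest control counts supplied 34.5% of all member counts in shlacZ. Per kilobase of exon the median member stood at 28.7 normalized counts in shlacZ, the median protein-coding gene tested at 99.5, and 15 members lay above that coding median.

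LINC00520 (chromosome 14, 55781132 to 55796731, minus strand), an RNA described as promoting the growth of melanoma and other tumour cells, was the highest at 950.3 ± 35.6 normalized counts per kb in shlacZ (SD, n = 3). LINC00622 followed at 750.0 ± 205, LINC03019 at 525 ± 111, LINC02303 at 449.6 ± 128 and LINC00698 at 441 ± 67.3. LINC00518, whose RNA is used together with PRAME in a non-invasive skin test for melanoma, stood at 376 ± 30.4, LINC02223 at 283 ± 37.6 and LINC01443 at 255 ± 56.7. Of the neighbours in this order, only LINC00518 and LINC02223 had control libraries that did not overlap. Within the controls the coefficient of variation was 23.1% in the median and ran from 2.25% for LINC00667 to 94.0% for LINC00173, a member whose first control library was at 77.4 against 15.7 and 18.3 in the others. LINC02248 varied as widely, from 432 in the first to 186 and 73.1 in the other two.

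**Figure D2:**
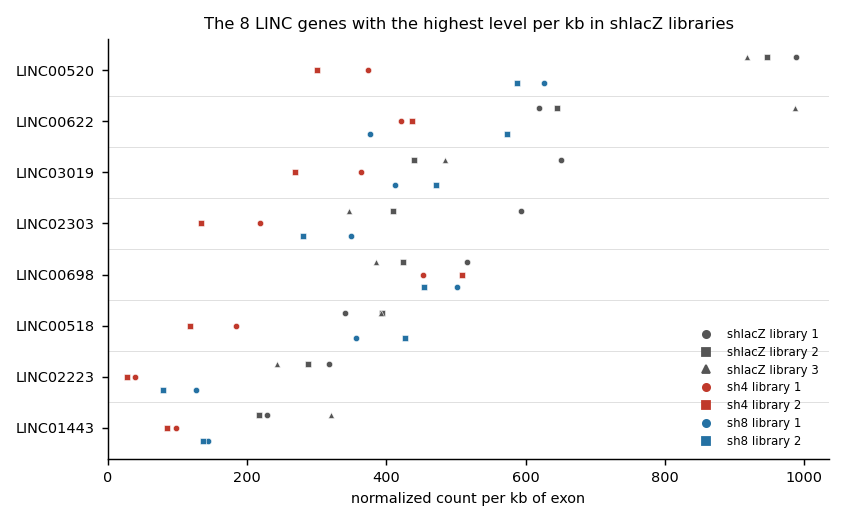
Normalized count per kb of exon (x axis, linear) for the 8 LINC genes with the highest control level, 1 symbol per library. LINC00520 lay between 917 and 988 per kb in shlacZ and between 301 and 374 in sh4, whereas LINC00698 overlapped between the groups.

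GRASLND knockdown, with both hairpins pooled, was compared with shlacZ to find LINC RNAs that responded to it. A gene was called when limma on log2(normalized count + 1) gave a Benjamini-Hochberg adjusted p under 0.05 and an absolute log2 fold change over 1, with p-values adjusted over the 15420 genes tested. The members called were 10 of 134 (7.46%), of which 4 were upregulated and 6 downregulated. Of all genes tested 1.99% were called, 1.3% as higher and 0.694% as lower. Over the 120 members with every group mean at least 30, 8 were called (6.67%), 4 as higher and 4 as lower. The median log2 fold change was 0.08 over the 134 members and -0.01 over all genes. With quantile normalization 2 members were called as higher and 5 as lower, and when the mean of both hairpins was taken from a fit with 3 groups 14 were called, 7 in each direction. For 31 members (23.1%) all knockdown libraries lay beyond all controls, a share near the 21.2% of all genes.

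LINC02223 (chromosome 5, 17684584 to 17955857, plus strand) showed the deepest fall. It was at 2558, 2312 and 1956 with shlacZ, 317 and 219 with sh4 and 1019 and 644 with sh8. Both hairpins lowered it with no overlap between any pair of groups, by 88.2% in sh4 and 63.5% in sh8. The log2 fold change in the knockdown comparison was -2.29 ± 0.43 (SE, adjusted p = 0.0233, limma).

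LINC00645 was at 59.9, 58.7 and 47.8 with shlacZ, 13.6 and 5.22 with sh4 and 14.5 and 21.8 with sh8. Each knockdown library was below 0.5 times the lowest control, at a level where 1 sh4 library held only 5.22 normalized counts, and the log2 fold change was -2.07 ± 0.43 (adjusted p = 0.0299, limma). LINC02732 was at 89.8, 37.7 and 37.4 with shlacZ, 13.6 and 8.96 with sh4 and 10.5 and 16.4 with sh8. Its first control library was more than 2 times as high as the other controls, and the knockdown libraries lay under all of them (-1.97 ± 0.40, adjusted p = 0.0279, limma). LINC00645 and LINC02732 were 2 of the 14 members with a group mean under 30, which passed the rule through their control level.

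The other downregulated members were well expressed in control cells. LINC00520 was at 3439.9, 3293 and 3194 with shlacZ, 1303 and 1046 with sh4 and 2181 and 2048 with sh8, so that the sh8 libraries lay between the controls and the sh4 libraries (-1.07 ± 0.23, adjusted p = 0.0354, limma). LINC01443 was at 651, 616 and 911 with shlacZ, 278 and 243 with sh4 and 407 and 390.4 with sh8, again with sh8 in between (-1.15 ± 0.22, adjusted p = 0.0234, limma). LINC00958, also known as BLACAT2 and studied in bladder cancer, was at 1290.1, 1635 and 1354 with shlacZ, 560.2 and 492 with sh4 and 1054 and 859 with sh8. Its groups did not overlap either, and the change just passed the limit of the call (-1.004 ± 0.25, adjusted p = 0.0478, limma). The summed melanocyte lineage markers given above were lower in the same libraries, led by DCT, TYRP1 and PMEL and not by TYR or S100B, and their part in these falls was not tested.

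Of the 4 upregulated members, LINC00499 (chromosome 4, 138309613 to 138663403, plus strand) had the strongest and steadiest rise. It was at 71.2, 76.5 and 67.9 with shlacZ, 199 and 249 with sh4 and 192 and 161 with sh8. The controls spanned less than 10 counts, all knockdown libraries were above 2 times the highest of them, and the log2 fold change was 1.45 ± 0.19 (adjusted p = 0.007, limma). LINC01198 was at 240.5, 123 and 168 with shlacZ, 386 and 305 with sh4 and 498 and 501 with sh8. It was the only one of the 4 that stood higher in sh8 than in sh4, with no overlap between the groups (1.28 ± 0.25, adjusted p = 0.0268, limma).

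LINC02981 was at 36.1, 46.1 and 43.5 with shlacZ, 148 and 172 with sh4 and 69.9 and 89.2 with sh8. LINC01138 was at 57.8, 36.7 and 42.6 with shlacZ, 166 and 177 with sh4 and 76.5 and 84.6 with sh8. For both, the sh4 libraries lay highest, the sh8 libraries in between and the controls lowest. The log2 fold changes were 1.41 ± 0.32 for LINC02981 (adjusted p = 0.0392, limma) and 1.37 ± 0.34 for LINC01138 (adjusted p = 0.0498, limma). LINC01138 lies in a duplicated part of chromosome 1 and shares exon bases with other genes on both strands.

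The count of members called in the knockdown comparison changed when single libraries were left out. Counts over all genes are not given for these fits or for the later ones with libraries left out. The counts of members, by adjusted or unadjusted p, therefore cannot be called particular to the members. It was 1 without the second shlacZ library, without shlacZ library 3 or without the first sh4 library, 5 without the first shlacZ library or without the second sh4 library, and 0 without the libraries numbered 1, where 28 members had an unadjusted p under 0.05 by limma. LINC00499 alone kept an adjusted p under 0.05 with each library left out in turn (highest 0.0384), but not without the libraries numbered 1 together (adjusted p = 0.122, limma), and no sign changed.

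**Figure D3:**
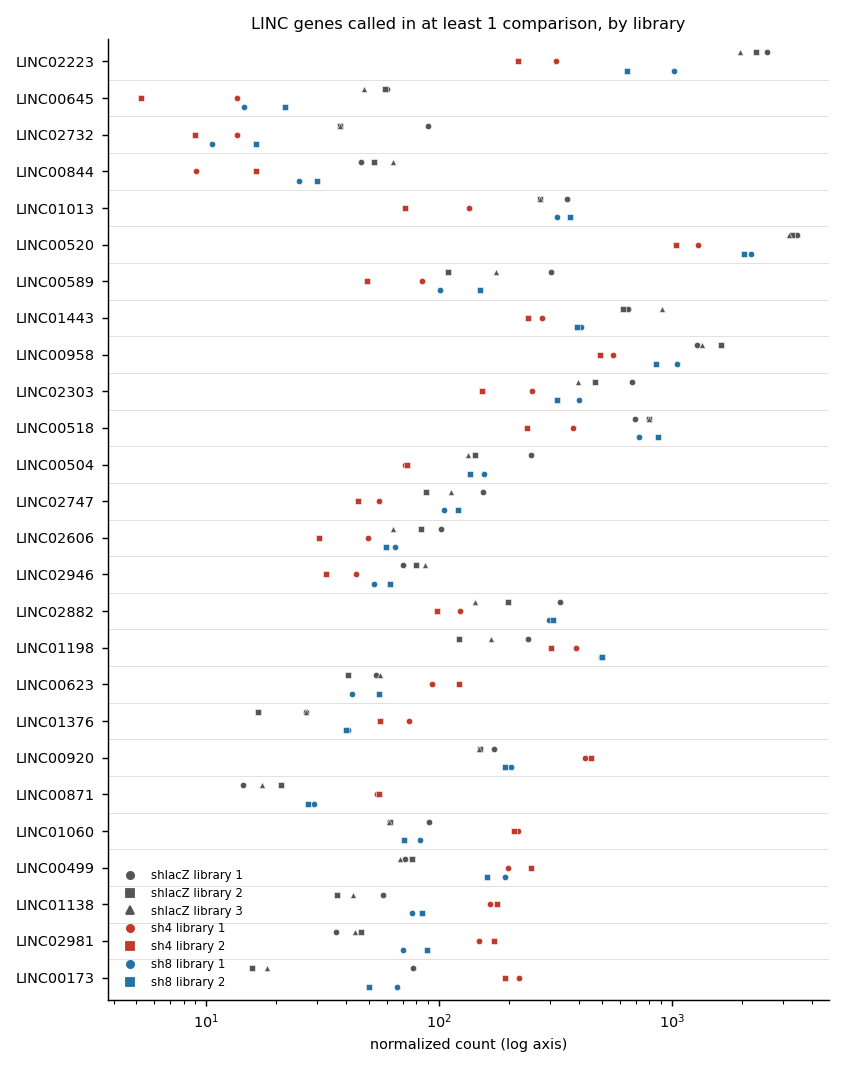
Normalized count (x axis, log scale) of the 26 LINC genes shown that were called in at least 1 comparison, ordered by the sh4 fold change, 1 symbol per library. LINC02223 fell from 1956 or more in shlacZ to 317 or less in sh4, and LINC00499 rose from at most 76.5 to at least 161 in every knockdown library.

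The hairpins were then compared with shlacZ one by one, each against the same 3 control libraries. For sh4 26 of 134 members were called (19.4%, against 8.16% of all genes). Of these, 10 were higher (7.46%, against 4.79%) and 16 lower (11.9%, against 3.37%), and over the 120 members with every group mean at least 30 the count was 21 (17.5%), 8 higher and 13 lower. For sh8 3 members were called (2.24%, against 1.15% of all genes), 2 as higher (1.49%, against 0.649%) and 1 as lower (0.746%, against 0.506%). With quantile normalization, 2 members were called as higher and 2 as lower under sh8. All 10 members called in the knockdown comparison were also called under sh4. Of the 3 members called under both hairpins, 0 were called in opposite directions. These overlaps are not given for all genes, so they cannot be called particular to the members. The median log2 fold change of the members was 0.03 under sh4 and 0.10 under sh8, and that of all genes -0.01 in both.

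LINC02223, LINC00499 and LINC01198 were called under both hairpins. The log2 fold changes of LINC02223 were -3.10 ± 0.22 under sh4 (adjusted p = 8.0e-05, limma) and -1.48 ± 0.22 under sh8 (adjusted p = 0.0091). For LINC00499 they were 1.62 ± 0.20 (adjusted p = 6.8e-04, limma) and 1.28 ± 0.20 (adjusted p = 0.0123), which is 3.12-fold and 2.46-fold the control mean. For LINC01198 they were 1.005 ± 0.26 (adjusted p = 0.0195, limma) and 1.55 ± 0.26 (adjusted p = 0.0135). The sh4 value of LINC01198 just passed the limit of the call and ran from 0.77 to 1.25 with each library left out in turn.

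Under sh4 the largest rise was that of LINC00173, an RNA described in granulocyte differentiation. It was at 77.4, 15.7 and 18.3 with shlacZ, 220.2 and 192 with sh4 and 65.9 and 50.1 with sh8. Both sh4 libraries were above 2 times the highest control, but the first control library was itself more than 4 times the others, and the log2 fold change of 2.82 came with an SE of 0.56 (adjusted p = 0.00649, limma). LINC01060 was at 90.8, 61.8 and 60.9 with shlacZ, 219 and 210.5 with sh4 and 83.04 and 70.99 with sh8, and LINC00920 at 172, 149.8 and 149 with shlacZ, 426 and 452 with sh4 and 204 and 192 with sh8. In both, sh4 stood clear of all other libraries, with log2 fold changes of 1.60 ± 0.24 (adjusted p = 0.00169, limma) and 1.48 ± 0.16 (adjusted p = 3.4e-04, limma).

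LINC00871 was at 14.4, 20.9 and 17.4 with shlacZ, 54.2 and 55.2 with sh4 and 29.00 and 27.3 with sh8, and LINC01376 at 26.8, 16.8 and 26.97 with shlacZ, 74.5 and 55.98 with sh4 and 40.9 and 40.04 with sh8. Both started from fewer than 30 counts in every control library and were also among the 14 members with a group mean under 30. LINC00871, with a mean of 31.2 over all libraries, passed the rule only through its sh4 level. LINC01376 was above 30 only in the knockdown libraries and passed the rule through them. Their log2 fold changes under sh4 were 1.60 ± 0.32 (adjusted p = 0.00695, limma) and 1.45 ± 0.33 (adjusted p = 0.0117, limma). LINC00623 rose by 1.10 ± 0.28 (adjusted p = 0.0187, limma), with means of 50.1 ± 8.04 in shlacZ, 108 ± 20.3 in sh4 and 48.8 ± 9.43 in sh8. All of its transcript matched other genes, with LINC01145 the closest, and its count is uncertain.

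Among the falls under sh4, LINC00518 was at 694, 802 and 799 with shlacZ, 376 and 239.6 with sh4 and 725 and 870.0 with sh8. The sh4 libraries were below 0.5 times the control mean, while 1 sh8 library fell within the range of the controls and the other above it. The log2 fold change was -1.34 ± 0.19 under sh4 (adjusted p = 0.00135, limma) and 0.06 under sh8, with a 95% interval of -0.38 to 0.49. LINC01013 (chromosome 6, 131901848 to 132169992, plus strand) was at 355, 272 and 272 with shlacZ, 134 and 71.6 with sh4 and 322 and 366 with sh8. It showed the same picture, with -1.59 ± 0.26 under sh4 (adjusted p = 0.00248, limma) and 0.20 under sh8 (interval -0.37 to 0.78).

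LINC01013 shares exon bases with CCN2 on the other strand, and CCN2, a secreted matrix protein, was at 80.5, 209 and 134 with shlacZ, 227 and 273 with sh4 and 379.6 and 378 with sh8. CCN2 was thus higher in the libraries of both hairpins than in the controls, with an adjusted p of 0.0692 for sh4 and 0.038 for sh8 by limma, and reads of the overlap cannot be assigned where counting did not use strand.

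LINC00844 was at 46.4, 52.4 and 63.5 with shlacZ, 9.03 and 16.4 with sh4 and 25.04 and 30.03 with sh8, with its groups in the order sh4, sh8, shlacZ and no overlap (-2.05 ± 0.36 for sh4, adjusted p = 0.00343, limma). It too was among the 14 members with a group mean under 30 and passed the rule through its control level. LINC02303 was at 678, 468 and 397 with shlacZ, 251 and 154 with sh4 and 399 and 321 with sh8 (-1.35 ± 0.26, adjusted p = 0.00602, limma). It had a higher first than second library in each hairpin group and its highest control in the first library, as did LINC00589 (-1.46 ± 0.40 for sh4, adjusted p = 0.0275, limma) in sh4 and shlacZ. The remaining called falls under sh4 were LINC00504 (-1.21), LINC02747 (-1.19), LINC02606 (-1.05) and LINC02946 (-1.03), with adjusted p values by limma between 0.012 and 0.0347.

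Without the second sh4 library the sh4 count was 13, and without the libraries numbered 1 it was 28, so that 1 library was then left in each hairpin group and was assumed to vary like the others. Of the 25 calls shown under sh4, 13 kept an adjusted p under 0.05 with each library left out. The sh8 count was 7 without the first shlacZ library, 1 without the first sh8 library, 0 without the second (where 22 members had an unadjusted p under 0.05 by limma) and 8 without the libraries numbered 1.

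**Figure D4:**
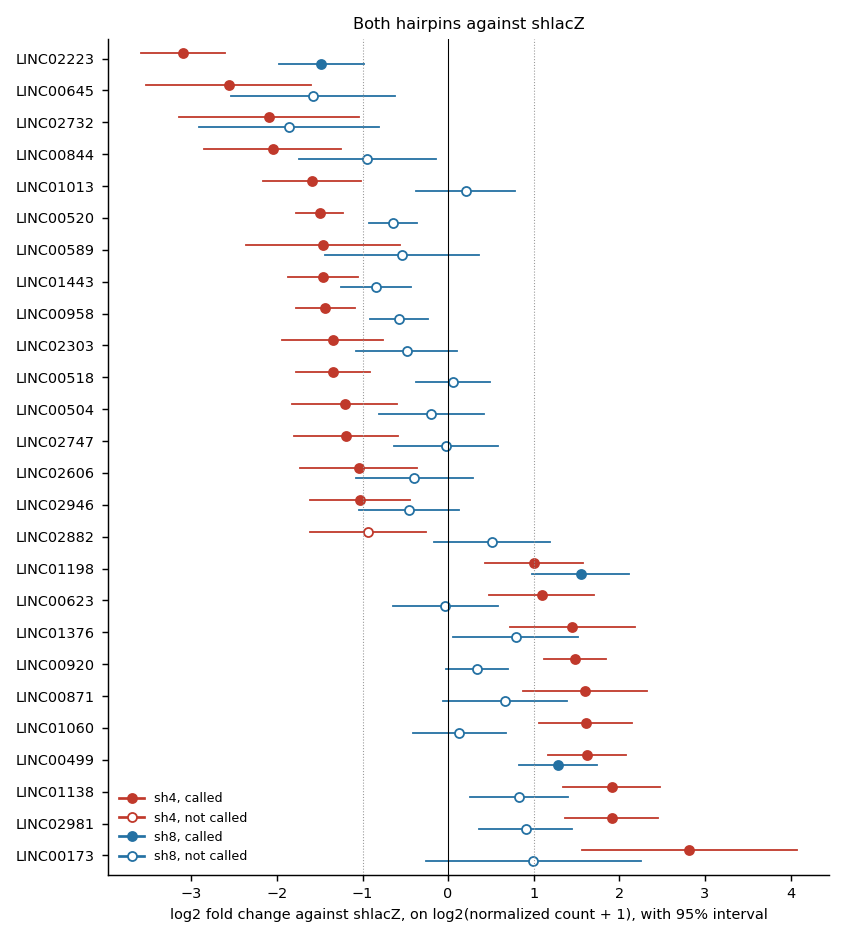
Log2 fold change against shlacZ (x axis, on log2(normalized count + 1)) for the 26 LINC genes shown, with 95% intervals from limma, red for sh4 and blue for sh8, and filled where called. Both hairpins share the 3 control libraries, and 3 members (LINC02223, LINC00499 and LINC01198) are filled in both.

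Because a call under 1 hairpin and not the other does not show a difference, sh4 was compared with sh8 directly. Of the 134 members 8 were called (5.97%, against 3.19% of all genes), 3 as higher in sh4 (2.24%, against 1.93%) and 5 as lower (3.73%, against 1.26%). With limma-voom on the recovered reads 6 were called as higher and 4 as lower. Of the 23 members called under sh4 and not under sh8, 6 were called in this comparison, a share not given here for all genes. Among the called members LINC01013 differed most (-1.79 ± 0.28, adjusted p = 0.00631, limma), followed by LINC02223 (-1.62 ± 0.24, adjusted p = 0.00544), which fell with both hairpins and further with sh4. LINC00518 was lower in sh4 by -1.40 ± 0.21 (adjusted p = 0.00557, limma) and LINC02747 by -1.17 ± 0.30 (adjusted p = 0.0458, limma).

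LINC02882 was called between the hairpins alone. It was at 332, 199 and 144 with shlacZ, 123 and 98.5 with sh4 and 298 and 308 with sh8, so that the controls overlapped the sh8 libraries and stayed above the sh4 libraries (-1.45 ± 0.33, adjusted p = 0.0292, limma). LINC01060 (1.47 ± 0.27, adjusted p = 0.0108), LINC00920 (1.14 ± 0.18, adjusted p = 0.00627) and LINC01138 (1.08 ± 0.28, adjusted p = 0.0471) were higher in sh4 by limma. LINC00173 was 5.55-fold the control in sh4 and 1.56-fold in sh8, but the difference between the hairpins had an adjusted p of 0.111 by limma. Leaving out the second sh4 library removed all 8 calls, with 19 members at an unadjusted p under 0.05 by limma, and the count was 5 without the first sh4 library, 4 without the first sh8 library, 5 without the second and 12 without the libraries numbered 1.

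Members with published roles were followed from a list of 20, of which 13 were members. LINC01116 lay under the limit, with a mean of 6.09, and the other 6 were not analysed here. Only LINC00520 and LINC00518, described above, were called in any comparison. LINC00665, from which a micropeptide has been described, was at 240.5, 295 and 285 with shlacZ, 216 and 178 with sh4 and 145 and 147 with sh8. All knockdown libraries were below all controls, and the log2 fold change was -0.89 ± 0.18 under sh8 (adjusted p = 0.0294, limma), short of a 2-fold change, and -0.48 ± 0.18 under sh4 (adjusted p = 0.0844). LINC00520 under sh8 likewise had an adjusted p of 0.0257 by limma with a log2 fold change of -0.65.

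LINC00662 was at 511, 404 and 396 with shlacZ, 562 and 578 with sh4 and 633 and 666 with sh8, with every knockdown library above the controls and an adjusted p of 0.0764 for the pooled difference of 0.49 (limma). LINC00963, first described in prostate cancer, was at 1119.8, 1258 and 1255 with shlacZ, 1412 and 1266 with sh4 and 1112 and 1359 with sh8. Its groups overlapped, and the pooled log2 fold change of 0.08 had a 95% interval of -0.19 to 0.36. LINC00511, described as a growth-promoting RNA in several tumours, was at 1226, 774 and 387 with shlacZ, 829 and 496 with sh4 and 830.4 and 329 with sh8. It varied more within the groups than between them, and its interval of -1.21 to 0.59 does not exclude a 2-fold change.

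The other members of the list also missed the call in the knockdown comparison. The log2 fold changes were -0.36 for LINC00467 and -0.16 for LINC00339. For LINC01089 and LINC00888 they were 0.41 and 0.41, for LINC00294 0.31, for LINC01128 0.09 and for LINC00839 0.03. The lowest adjusted p among these was 0.188 by limma, for LINC00888.

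Of the 3 members that host microRNA hairpins, LINC01138, described above as upregulated, hosts MIR5087 and was the only one called. LINC00461, the host of MIR9-2, which is known from neural development, was at 332, 263 and 229.7 with shlacZ, 245 and 239.6 with sh4 and 212 and 169 with sh8. The sh4 libraries overlapped the controls and both sh8 libraries lay below them, with a log2 fold change of -0.52 under sh8 (adjusted p = 0.203, limma). LINC00472, the host of MIR30A and MIR30C2, was at 325, 226 and 259 with shlacZ, 253 and 329 with sh4 and 323 and 365 with sh8, with overlapping groups.

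The position of the called members was compared with that of coding genes, since some lncRNAs act on their own locus. A coding gene started within 1 kb on the other strand for 9 members (LINC00205, LINC01547, LINC01089, LINC01521, LINC01424, LINC01126, LINC01301, LINC01473 and LINC00235), and neither these members nor their coding partners were called in the knockdown comparison. The log2 fold changes of the coding partners lay between -0.59 (SLX9, with LINC01547 at 0.03) and 0.07 (RAB2A, with LINC01301 at -0.12). LINC01424 and UBE2G2, whose starts lie 57 bp apart, stood at -1.13 (adjusted p = 0.0521, limma) and -0.69 (adjusted p = 0.00296, limma) under sh4. LINC01547 and SLX9 lay in opposite directions there, at 0.38 and -0.72 (adjusted p = 0.0149 for SLX9, limma).

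For 14 of the sh4 calls the nearest coding gene was tested and is reported, and in 4 of them it was called in the same direction and in 0 in the other. For the 76 members not called under sh4 it was called in 10, where FAM98A counts for both LINC01320 and LINC01318. Of all genes tested 8.16% were called under sh4. SLC7A11, the cystine transporter that feeds glutathione synthesis, starts 67264 bp from LINC00499 on the other strand and was at 2524, 3414 and 2858 with shlacZ, 6913 and 11835 with sh4 and 5458 and 4913 with sh8. Like LINC00499, it was higher in all knockdown libraries than in all controls, at 1.64 on the log2 scale under sh4 (adjusted p = 7.5e-04, limma) and 1.23 in the knockdown comparison (adjusted p = 0.034, limma).

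SLC25A33, a mitochondrial pyrimidine nucleotide carrier, starts 98901 bp from LINC02606 and was at 642, 911 and 861 with shlacZ, 393 and 331 with sh4 and 424 and 357 with sh8. It fell with both hairpins, by -1.14 on the log2 scale under sh4 (adjusted p = 0.00226, limma), where LINC02606 was at -1.05. With each library left out in turn, the sh4 value of LINC02606 ran from -1.39 to -0.71. ANKRD30B, 217995 bp from LINC01443, was lower under sh4 at -1.70 (adjusted p = 0.00471, limma), and SNX10, 106731 bp from LINC02981, was higher at 1.02 (adjusted p = 0.00508, limma). TFAP2A, a transcription factor of the neural crest and melanocytes whose start lies 15356 bp from that of LINC00518, was lower under sh4 at -0.66 (adjusted p = 0.00416, limma) and did not reach a 2-fold change. RDX, nearest to LINC02732, was likewise lower at -0.71 (adjusted p = 0.00263, limma). SARAF, nearest to LINC00589, went the other way from its LINC gene, at 0.54 (adjusted p = 0.0459, limma). CCN2, nearest to LINC01013, also rose while its LINC gene fell, at 0.92 (adjusted p = 0.0692, limma).

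**Figure D5:**
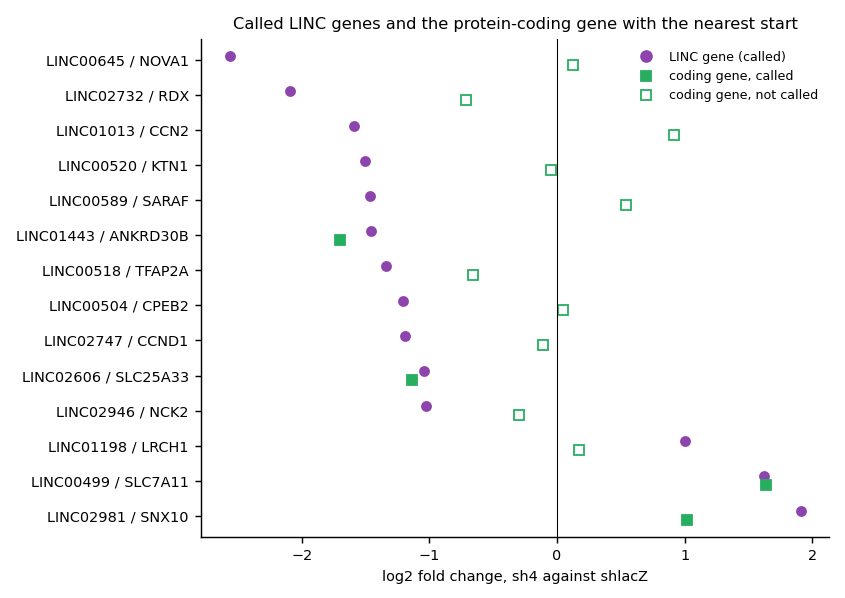
Log2 fold change of sh4 against shlacZ (x axis) for the 14 called LINC genes with a tested nearest coding gene (circles) and for that gene (squares, filled where called). In 4 pairs the square is filled, and it lies on the side of its LINC gene in each of them.

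Neighbouring members were also set side by side. LINC02099 and LINC00589 start 200 bp apart on opposite strands and stood at -0.83 and -1.46 under sh4, where LINC02099 had an adjusted p of 0.0765 by limma. LINC00662 and LINC02987, 574 bp apart, stood at 0.49 and 0.04 in the knockdown comparison, and LINC01128 and LINC00115, 2401 bp apart, at 0.09 and 0.46. No member of the last 2 pairs was called.

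The 107 members not called in any comparison included well expressed RNAs. LINC00698 was at 1415, 1163 and 1055 with shlacZ, 1241 and 1397 with sh4 and 1376 and 1247 with sh8. Its groups overlapped, with a pooled log2 fold change of 0.13 (95% interval -0.16 to 0.42), whereas CADPS, the nearest coding gene 75014 bp away, was at 2.64 (adjusted p = 0.00826, limma). LINC00667 was at 581, 569.8 and 596 with shlacZ, 449 and 472 with sh4 and 655 and 596 with sh8, and its 3 controls lay within 30 counts of each other. LINC00622 was at 972, 1012 and 1548 with shlacZ, 662 and 686 with sh4 and 591 and 899 with sh8. All of its knockdown libraries lay below all controls, but the control library numbered 3 was far above the others and the log2 fold change of -0.71 had an adjusted p of 0.0667 by limma. LINC03019 was at 819, 553 and 609.8 with shlacZ, 457 and 338 with sh4 and 519 and 593 with sh8, with overlapping groups, a log2 fold change of -0.48 and an adjusted p of 0.195 by limma.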

How the data were processed

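The deposited data are 1 table of normalized counts, made by the authors, for 7 RNA-seq libraries of 501Mel cells. RNA was depleted of ribosomal RNA and made into stranded libraries. Per the labels and the methods of the study, the authors trimmed reads with Cutadapt, aligned them to hg38 with STAR, quantified genes with Salmon and divided counts by a size factor per library in DESeq2. Versions, annotation release and the use of strand are not given in the sources used here. No gene of the deposited table had under 10 reads in all. 100% of the values were whole multiples of 1 read (tolerance 0.001 reads), which gave 13337317 to 22855232 reads per library assigned to the genes of the table. The table had 0 columns of other samples. Size factors would scale away a change shared by most genes.

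Genes with a mean of at least 10 (15420) were tested with limma 3.58.1 (R 4.3.3), with a variance trend, on log2(normalized count + 1), a scale that understates changes of low genes. The knockdown comparison used 2 levels and the others a fit with 3 groups. The knockdown and sh4 tests were run on simulated data with the same spread for all genes and changes well past the limit. For the pooled test the change was equal in both hairpins. The simulation therefore does not cover hairpins that differ in the pooled test, changes near the limit or the difference of the libraries numbered 1. p-values were adjusted by Benjamini-Hochberg over all genes tested. Coordinates came from GENCODE release 44 (hg38, all 134 members matched), copies from blastn 2.17.0 and promoters from RefSeq. Named were the 8 members with the highest level per kb, up to 8 calls in each direction per comparison, members near the limit, a list with published roles, divergent partners of called genes, GRASLND and RNF144A. Other names (uncalled neighbours, microRNA hosts, LINC00667, LINC02248, and LINC00504, LINC02606, LINC02946 and LINC00623 among the sh4 calls) were added after their values were seen. The coding gene nearest to 2 members is not reported here. Members and lists were chosen with earlier results of these data known. Alternatives changed the pseudocount, minimum mean, scaling, variance trend, replicate block, call rule, member limit and libraries. Means are given ± SD and fold changes ± SE.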

Additional observations from a re-analysis of the deposited data

Results flagged for a closer look

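The hairpins differed for 8 members in the direct comparison of sh4 with sh8. On the log2 scale LINC01013 was at -1.79, LINC02223 at -1.62, LINC02882 at -1.45, LINC00518 at -1.40 and LINC02747 at -1.17, all lower in sh4. LINC01060 was at 1.47, LINC00920 at 1.14 and LINC01138 at 1.08, all higher in sh4. Each of these values had a limma adjusted p under 0.05 with 2 libraries per hairpin, and each lost it without the second sh4 library.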

How the results depend on the processing

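Other settings were both other scalings, both other pseudocounts, both other minimum means and limma-voom on the recovered reads (added after seeing the data). They kept each of the 4 totals of called members within 1.5 times its value. The split by direction was less steady. With limma-voom 6 members were higher and 4 lower in sh4 against sh8 (3 and 5 in the report). In the knockdown comparison 2 were higher and 7 lower (4 and 6). Counts over all genes under the alternatives are not given. Without a variance trend the count was 1 in the knockdown comparison (10 in the report), 1 for sh8 (3) and 5 for sh4 against sh8 (8). A call by adjusted p alone gave 6 members for sh8. With the libraries numbered 1 left out together, a choice made after seeing the data, the counts were 0 in the knockdown comparison (28 members at an unadjusted p under 0.05 by limma) and 8 for sh8. Leaving out each library in turn gave 1 to 12 calls in the knockdown comparison, 13 to 26 for sh4, 0 to 7 for sh8 and 0 to 12 for sh4 against sh8, and a group left with 1 library was assumed to vary like the others.

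The replicate number as a block gave 1 call in the knockdown comparison, 29 for sh4, 5 for sh8 and 12 for sh4 against sh8. Same-numbered libraries deviated from their group means with correlations of 0.475 and 0.351 between shlacZ and sh4. The values were 0.122 and -0.15 between shlacZ and sh8, and -1e-04 between the hairpins. With 2 libraries per hairpin the deviations mirror each other, so these correlations are not separate. They cannot decide whether the numbers pair the libraries, and the main fits used no pairing. LINC00499 had an adjusted p of 0.0803 with the block in the knockdown comparison. The cause of these shifts was not tested. Of 666 values of single members under the alternatives, 541 kept direction and an adjusted p under 0.05, 125 kept the direction alone and 0 changed sign. The planned edgeR and DESeq2 tests were not run, and limma-voom was added in their place. Precision is limited by 2 libraries per hairpin, and for the 14 members with a group mean under 30 also by counting.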

Other observations

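LINC genes under the limit of the members were also measured. Of the 89 LINC genes with a mean between 10 and 30, limma called 2 in the knockdown comparison (2.25%, against 1.99% of all genes tested), 10 under sh4 (11.2%, against 8.16%), of which 3 were higher and 7 lower, 0 under sh8 (against 1.15%) and 1 between the hairpins (1.12%, against 3.19%). Under sh8 8 of these had an unadjusted p under 0.05, a count given without the share of all genes, and limma-voom called 0. A further 226 LINC genes had a mean under 10 and were not tested.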
